A study of Mus musculus with 15 samples.

Results

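Nuclear genes for subunits of complexes III, IV and V of the respiratory chain were followed across the left ventricles of infarcted mice given the EZH2 inhibitor GSK-343, infarcted mice given the vehicle, and sham-operated mice. The genes were taken from the expression table as all protein-coding rows whose symbol begins with Uqcr, with Atp5, or with Cox followed by a digit from 4 to 8. The rule found 44 of 54532 rows, with 43 different symbols, because Atp5o stands on 2 rows. By role, 8 rows encode complex III subunits, 17 complex IV subunits and 17 ATP synthase subunits. The remaining 2, Cox7a2l and Atp5s, are not subunits of the finished complexes. The rule leaves out Cyc1 of complex III, Ndufa4 of complex IV and Usmg5 of ATP synthase, whose symbols begin otherwise.

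Complex III passes electrons from ubiquinol to cytochrome c, complex IV passes them from cytochrome c to oxygen, and ATP synthase uses the proton gradient that the chain builds to make ATP. The mitochondrial genome encodes 1 or more core subunits of each complex, and nuclear genes encode all others, so the 2 genomes have to be expressed together. Heart muscle is among the tissues richest in these complexes, and some complex IV subunits have a heart and skeletal muscle isoform beside a form made in most tissues.

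All animals were female C57BL/6JRj mice of 12 to 18 weeks, no altered allele or transgene is named for any group, and RNA was taken 8 days after surgery. GSK mice received GSK-343 at 20 mg/kg in 20% Captisol by daily injection into the abdomen, first at 6 h after surgery and last on day 7. EZH2 is the enzyme of Polycomb repressive complex 2 that methylates histone H3 at lysine 27. MI mice had the left descending coronary artery tied off for good and received the vehicle; GSK mice are named only by the compound, and the dosing protocol is what places them among the infarcted. Sham mice are the surgical controls, and by that protocol they got the vehicle. Each group has 5 libraries from whole left ventricle, so a library mixes infarcted, bordering and distant tissue and all cell types, and Sham replicates 1 and 2 each pool RNA of 2 animals. The comparisons ask what infarction does to these genes and whether the inhibitor changes it.

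The 15 libraries held 21534000 to 26844000 fragments assigned to genes. MI replicate 4 and GSK replicates 3 and 4 stand apart. Mitochondrially encoded transcripts took 40.6% to 48.7% of their summed FPKM (fragments per kilobase of gene length, scaled per library by the authors), against 31.8% to 32.7% in the other GSK libraries, 23.2% to 27.6% in the other MI libraries and 41.2% to 42.2% in Sham. Results are therefore also given without these 3 libraries. Gapdh split the libraries in another way. It was at 1.30 to 8.31 FPKM in GSK replicates 1, 3 and 4, MI replicates 1 and 4 and Sham replicates 1 to 3. In the other libraries it was at 32.4 to 58.0 FPKM. No fit allowed for this split, and its cause was not tested. Cardiomyocyte markers summed to 13885 FPKM or more in every library. The highest Myh6 value was 3102 FPKM in GSK, 3123 in MI and 3711 in Sham. These are levels of heart muscle, and whether the tissue is ventricle was not checked. Of the 7 skeletal muscle markers, Myh4 was listed at 0 throughout and Myh1 did not exceed 0.0172 FPKM, while Acta1 and Ckm, which heart muscle also expresses, reached 1940 and 403. The 3 that passed the filter were Acta1, higher in MI than in Sham (2.55 on the log2 scale, adjusted p = 0.00869), Ckm, lower (-0.84, adjusted p = 0.0227), and Tnnt3, not called (0.83, adjusted p = 0.0563).

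Of the 44 rows, 41 passed the filter on low values, which asked for at least 1 FPKM in at least 5 libraries. The other 3 are Cox7b2 and Cox8c, isoforms known from testis, and the second row of Atp5o. Cox7b2 stayed at or below 0.258 FPKM in GSK, 0.206 in MI and 0.428 in Sham, and was listed at 0 in 2 libraries. Cox8c and the second Atp5o row were listed at 0 in all 15. Of the 41, 36 averaged over 100 FPKM over all libraries and 3 averaged under 15, namely Cox6b2, Atp5s and Cox4i2. The highest was the muscle isoform gene Cox6a2, at 1402 FPKM over all libraries. FPKM divides by the gene length in the deposited table, which for some members is far above that of their coding transcripts (6443 bases against a median of 544 for Atp5l), so this order and the sums below carry that length, and levels of different genes are set against each other only as ratios within isoform pairs, by how those ratios differ between groups.

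Close to 1 in 2 of these genes were called lower in infarcted vehicle-treated hearts, in each of the 3 complexes, and under quantile normalization the share was below that of all genes. Of the 41 tested, MI had 20 called lower and 0 called higher relative to Sham, where 21.9% of all 12585 genes tested were called lower and 21.9% higher (limma, Benjamini-Hochberg adjusted p under 0.05, here and below over all genes tested). The median log2 difference was -0.52 over the members and -0.02 over all genes. The log2 difference was below 0 for 38 members, against 51.9% of all genes, and 29 were lower at an unadjusted p under 0.05, against 26.3%. The 5 MI libraries lay wholly below the 5 Sham libraries for 12 members, 29.3% of them, against 14.2% of all genes. The counts by complex were 4 of 8 for complex III, 7 of 15 for complex IV and 8 of 16 for ATP synthase, with medians of -0.50, -0.54 and -0.52. Without the 3 libraries that stand apart, 16 members were called lower (23.7% of all genes) and the median was -0.51. Under quantile normalization, which gives every library the same distribution of values, 7 members were called lower and 1 higher, with a median of -0.26 against -0.03 over all genes. Those 7 are 17.1% of the members, below the 22.9% of all genes called lower in that fit. Without the pooled Sham libraries 12 were called lower, 29.3% of the members against 16.6% of all genes. No fit scaled the libraries by their fragment totals, which would raise MI relative to Sham for all genes. In whole tissue, fewer cells of a type and less RNA per cell cannot be told apart. The 3 comparisons share libraries in pairs and are not independent of each other.

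On the deposited scale, the sums per complex were lower on average in both infarcted groups for each complex, with overlap. The summed FPKM of all genes also differed, at 351935 to 448500 in GSK, 313237 to 422372 in MI and 436577 to 472823 in Sham. Members took 2.53% to 4.60% of a library's summed FPKM in GSK. In MI they took 2.58% to 4.74%, which spans the 3.56% to 4.37% of Sham. Complex III genes summed to 2425, 3484, 2264, 2195 and 2497 FPKM in GSK replicates 1 to 5, to 2809, 1670, 2394, 2177 and 3464 FPKM in MI, and to 3195, 3597, 3285, 3878 and 3733 FPKM in Sham. GSK replicate 2 and MI replicate 5 lie among the Sham libraries, and the other 8 infarcted libraries lie below all of them. Complex IV genes averaged 5644 ± 1634 FPKM in GSK, 5434 ± 1564 in MI and 8127 ± 925 in Sham as sums, and ATP synthase genes 5048 ± 874, 4682 ± 1188 and 6714 ± 568 in the same order (SD, n = 5 each).

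**Figure D1:**
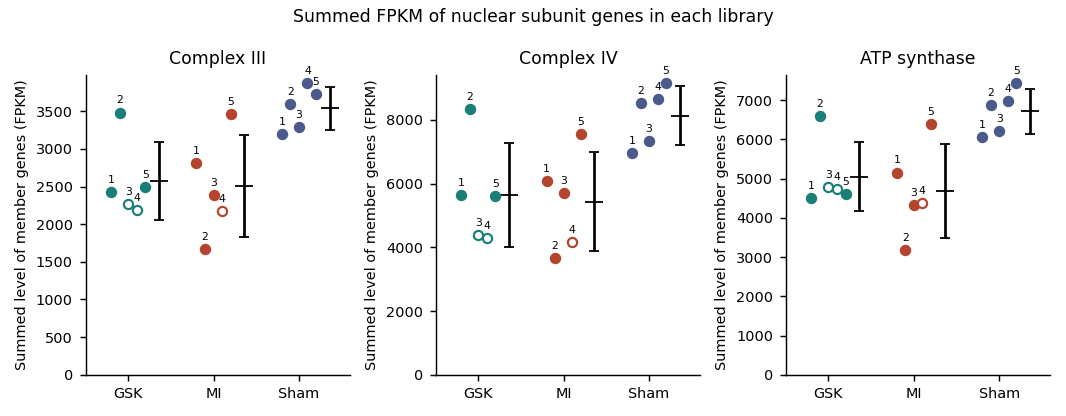
Summed FPKM of the member genes of complex III, complex IV and ATP synthase (y axes) in each library of GSK, MI and Sham (x axes); digits are replicate numbers, open circles are the 3 libraries that stand apart, and bars give mean and SD. GSK replicate 2 and MI replicate 5 reach the Sham range for all 3 complexes, and MI replicate 2 is the lowest library for each.

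Among complex III subunits, Uqcrfs1, the Rieske iron-sulfur protein that takes the first electron from ubiquinol, gave one of the clearest falls. It stood at 453, 639, 469, 487 and 500 FPKM in GSK, at 531, 323, 435, 432 and 657 FPKM in MI, and at 658, 737, 682, 747 and 805 FPKM in Sham. All 5 MI libraries were below all 5 Sham libraries, though MI replicate 5 and the lowest Sham library almost met. The log2 difference was -0.65 ± 0.16 SE between MI and Sham (adjusted p = 0.00559). Uqcrq, a small subunit beside cytochrome b, averaged 224 ± 74.0 FPKM in GSK, 220 ± 68.0 in MI and 351 ± 39.2 in Sham (SD), and fell by 0.72 ± 0.23 SE on the log2 scale in MI (adjusted p = 0.0181). Both calls were lost under quantile normalization (adjusted p = 0.056 and 0.0829).

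The core protein gene Uqcrc2 averaged 280 ± 42.3 FPKM in GSK, 255 ± 59.9 in MI and 347 ± 24.6 in Sham (SD), with a log2 difference of -0.48 ± 0.16 SE between MI and Sham (adjusted p = 0.0251). It did not pass in 7 of 26 alternatives, of which 4 drop 1 library, MI replicate 2 or 3 or Sham replicate 4 or 5 (adjusted p 0.0511 to 0.0686). Uqcrb, another small subunit, had -0.43 ± 0.16 (adjusted p = 0.0386) and lost its call in 13 of 26 alternatives, among them without any of MI replicates 1 to 4 or Sham replicates 2 to 5 (adjusted p 0.0546 to 0.0951) and without the 3 libraries that stand apart (adjusted p = 0.0514). Uqcrc1, Uqcrh, Uqcr10 and Uqcr11 did not pass, at log2 differences of -0.51, -0.48, -0.34 and -0.73. Transcripts of Uqcrb and Uqcr11 are at least 97% identical to an annotated pseudogene over at least 150 bases, and Uqcrc2, Uqcrb and Uqcrh overlap a gene on the other strand, so the share of fragments that belongs to each is uncertain.

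ATP synthase genes are given by their place in the enzyme. Of the 5 subunits of the catalytic F1 head and its shaft, 4 were called lower in MI, against 21.9% of all genes. Only Atp5c1 among them kept its call under quantile normalization. Atp5a1 and Atp5b encode the alpha and beta subunits that form the catalytic ring, Atp5c1 the rotating gamma subunit. Atp5a1 stood at 982, 1508, 1299, 1247 and 1027 FPKM in GSK, at 1159, 669, 897, 1082 and 1397 FPKM in MI, and at 1548, 1660, 1459, 1602 and 1782 FPKM in Sham. The MI libraries lay below all Sham libraries, while GSK replicate 2 lay within the Sham range. The log2 differences between MI and Sham were -0.67 ± 0.18 SE for Atp5a1 (adjusted p = 0.00809), -0.59 ± 0.16 for Atp5b (0.00771) and -0.57 ± 0.16 for Atp5c1 (0.00992). Under quantile normalization Atp5a1 and Atp5b lost their calls (-0.19 and -0.14, adjusted p = 0.284 and 0.396), and also with no filter on low values (0.0558 and 0.0547); Atp5c1 kept its call under all 26 alternatives. Atp5d, the delta subunit of the shaft, did not pass (-0.22 ± 0.21, adjusted p = 0.404).

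The peripheral stalk holds the head still while the shaft turns. All 4 of its genes were called lower in MI, against 21.9% of all genes. Under quantile normalization Atp5h and Atp5o lost their calls. Atp5f1, the stalk subunit b, stood at 163, 217, 180, 183 and 172 FPKM in GSK, at 180, 122, 145, 169 and 209 FPKM in MI, and at 244, 254, 252.4, 275 and 291 FPKM in Sham. Both infarcted groups lay below every Sham library. Its log2 difference was -0.69 ± 0.13 SE between MI and Sham (adjusted p = 0.000933), and it passed under all 26 alternatives. Atp5j, coupling factor 6, also passed under all (-0.52 ± 0.15, adjusted p = 0.0111). Atp5h, the stalk subunit d, and Atp5o, which joins stalk and head, were less firm, at -0.45 ± 0.16 (adjusted p = 0.0338) and -0.79 ± 0.30 (0.0468), with the call lost in 10 and 13 of 26 alternatives. Atp5h lost it without MI replicate 2 or 3 or Sham replicate 2, 4 or 5 (adjusted p 0.0616 to 0.0811), and Atp5o without GSK replicate 1 or 5, MI replicate 2, 3 or 4 or any Sham replicate (0.0530 to 0.117). Atp5f1 and Atp5j overlap Wdr77 and Gabpa on the other strand, and Atp5f1, Atp5h and Atp5o share at least 97% identity with a pseudogene. The tested Atp5o row also overlaps the second Atp5o row, Gm15976 and D430001F17Rik. The share of fragments that belongs to each of these genes is uncertain.

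The c ring that turns in the membrane is encoded by Atp5g1, Atp5g2 and Atp5g3, whose mature proteins are the same. None of the 3 passed, at log2 differences of -0.50, -0.32 and -0.53 between MI and Sham, except Atp5g2 under quantile normalization (-0.29, adjusted p = 0.0377). An annotated pseudogene with 99.8% identity to Atp5g1 held 188 to 573 FPKM per library, and Atp5g2 shares 100% identity with pseudogenes at 3.37 to 7.64 FPKM, so how much of each level belongs to the gene is uncertain. Of the other membrane subunits with an Atp5 symbol, Atp5j2, Atp5k, Atp5l and Atp5mpl did not pass either, at -0.37, -0.95, -0.45 and -0.20, and for Atp5l pseudogenes with up to 100% identity held 157 to 352 FPKM. Usmg5, a membrane subunit outside the naming pattern, was called lower (-0.54 ± 0.17, adjusted p = 0.0191). Atp5e, the epsilon subunit of the shaft, was lower at -0.68 ± 0.25 (adjusted p = 0.0389) but lost its call in 11 of 26 alternatives, among them without the 3 libraries that stand apart (0.0503) and without MI replicate 2 or 4 or any of Sham replicates 2 to 5 (0.0609 to 0.0988).

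Complex IV held both the largest fall and the members that did not move down. Cox7a1, Cox6a2, Cox7a2, Cox4i1, Cox6c, Cox7b and Cox7c were called lower in MI. Cox6c, a small subunit, passed under all alternatives (-0.55 ± 0.14, adjusted p = 0.00604). Cox6c overlaps Vps13b on the other strand, and Cox4i1 overlaps Emc8 and Gm20388, 1 on each strand, so their share of fragments is uncertain. Cox4i1, the largest nuclear subunit, was at -0.55 ± 0.18 (adjusted p = 0.0225); without MI replicate 2, without Sham replicate 5 and without the 3 libraries that stand apart, its adjusted p was 0.0519, 0.0542 and 0.0557. Cox7b lost its call without MI replicate 2 or 4 or Sham replicate 4 or 5 (-0.61 ± 0.20, adjusted p = 0.0243, and 0.0552 to 0.0629 without them). Cox7c lost it in 19 of 26 alternatives (-0.48 ± 0.19, adjusted p = 0.0471), 12 of which leave out 1 library, namely any but MI replicates 4 and 5 and Sham replicate 1 (0.0505 to 0.120), and shares up to 100% identity with pseudogenes that together held 113 to 297 FPKM per library. Cox4i2, the isoform known from lung and from low oxygen, did not pass and was at 12.5 ± 1.93 FPKM in GSK, 11.9 ± 2.59 in MI and 11.6 ± 1.59 in Sham (SD). Cox6b2, an isoform known from testis, was at 1.39 ± 0.741 FPKM in GSK, 1.49 ± 0.917 in MI and 2.42 ± 0.851 in Sham and did not pass (adjusted p = 0.124). Cox5a, Cox5b and Cox6b1, which are made in most tissues, did not pass, at -0.35, -0.55 and -0.32. Cox4i1, Cox6c, Atp5h, Atp5j and Uqcr11 were picked for naming after their values were seen.

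**Figure D2:**
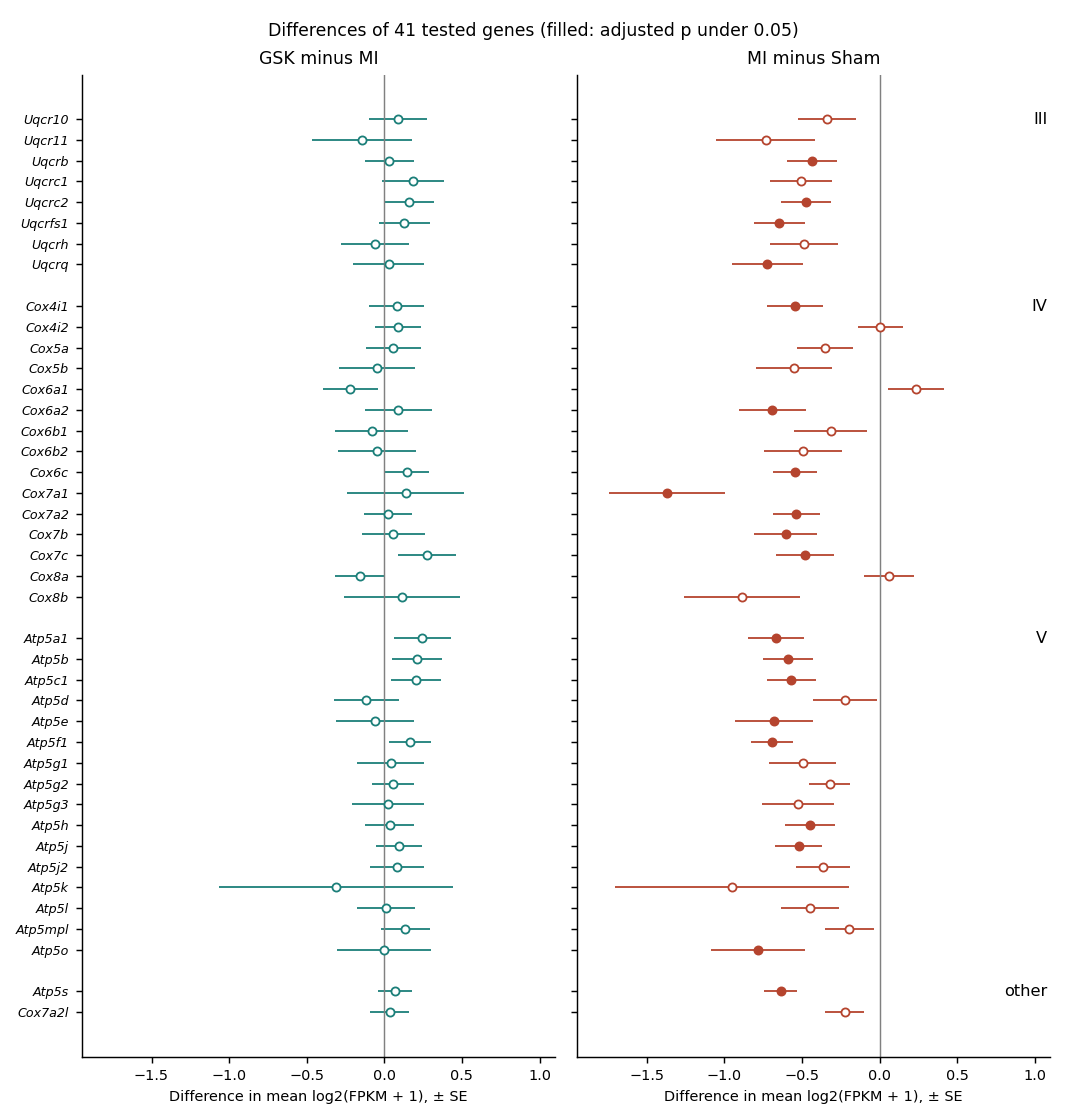
Difference in mean log2(FPKM + 1) with its SE (x axes) for each of the 41 tested genes (y axis, grouped as complex III, complex IV, ATP synthase and the 2 that are no subunits), GSK minus MI at left and MI minus Sham at right; filled points passed the adjusted p of 0.05. At right 20 points are filled and all lie below 0, the lowest being Cox7a1 at -1.37; at left none is filled.

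Apart from single libraries, quantile normalization ended the most calls, 14 of the 20. In complex III none was left, with Uqcrfs1 at -0.30, Uqcrq at -0.42, Uqcrc2 at -0.16 (adjusted p = 0.320) and Uqcrb at -0.10 (0.435). In complex IV it ended those of Cox6a2, Cox7a2, Cox4i1 (-0.26, adjusted p = 0.150), Cox7b (-0.29, 0.148) and Cox7c (-0.21, 0.287). In ATP synthase it ended those of Atp5a1, Atp5b, Atp5h (-0.12, 0.343), Atp5o (-0.63, 0.068) and Atp5e (-0.51, 0.0691). The calls that remained were those of Cox7a1, Cox6c, Atp5c1, Atp5f1, Atp5j and Atp5s, with Atp5c1 at -0.29 and the others at -0.41 to -1.02. With no filter on low values 11 calls ended, those of Uqcrc2, Uqcrb, Cox6a2, Cox4i1, Cox7b, Cox7c, Atp5a1, Atp5b, Atp5h, Atp5o and Atp5e (adjusted p 0.0547 to 0.106), where 31619 genes entered the adjustment. Without the pooled Sham libraries 8 of these 11 ended, with the exception of Cox7b, Atp5a1 and Atp5b (adjusted p 0.0604 to 0.1001).

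Atp5s and Cox7a2l match the naming pattern without being subunits. Atp5s, also called factor B, is associated with ATP synthase, and it had the smallest adjusted p of all 41. It stood at 7.43, 10.3, 7.18, 8.24 and 8.62 FPKM in GSK, at 8.78, 6.01, 7.76, 7.88 and 9.24 FPKM in MI, and at 12.9, 11.9, 11.9, 13.2 and 14.1 FPKM in Sham. Every infarcted library lay below every Sham library. The log2 difference was -0.64 ± 0.11 SE between MI and Sham (adjusted p = 0.000341) and -0.57 ± 0.11 between GSK and Sham (adjusted p = 0.00339), and both calls held under all 26 alternatives. Cox7a2l is described as a factor that helps complexes III and IV to associate, and whether it does so in this strain was not examined. It averaged 166 ± 17.0 FPKM in GSK, 163 ± 28.3 in MI and 189 ± 17.3 in Sham (SD) and did not pass (-0.23 ± 0.13, adjusted p = 0.158).

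Of the complex IV subunits, 3 come as a muscle isoform and a form made in most tissues, and in MI the balance moved away from the muscle isoform in each pair. Cox7a1 (ENSMUSG00000074218, chromosome 7, 30184144 to 30186078, plus strand, on mm10) is the muscle isoform of subunit 7a. It stood at 584, 920, 300, 268 and 484 FPKM in GSK, at 683, 251.7, 494, 208 and 737 FPKM in MI, and at 820, 1038, 1101, 1240 and 1301 FPKM in Sham. All MI libraries lay below all Sham libraries, and only GSK replicate 2 reached the Sham range. The MI mean was 43.2% of the Sham mean, the log2 difference was -1.37 ± 0.38 SE (adjusted p = 0.00864; -1.12 without the 3 libraries that stand apart, adjusted p = 0.00998), and the call held under all 26 alternatives. Its partner Cox7a2 (ENSMUSG00000032330, chromosome 9, 79755361 to 79759878, minus strand) stood at 213, 302, 240, 213 and 223 FPKM in GSK, at 262, 168, 205, 255 and 293 FPKM in MI, and at 314, 311, 309, 397 and 365 FPKM in Sham. It fell as well, by less: -0.54 ± 0.15 SE between MI and Sham (adjusted p = 0.0111; 0.0698 under quantile normalization).

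Cox6a2 (ENSMUSG00000030785, chromosome 7, 128205435 to 128206387, minus strand) is the muscle isoform of subunit 6a. It stood at 1156, 1844, 978, 933 and 1235 FPKM in GSK, at 1355, 795, 1172, 867 and 1603 FPKM in MI, and at 1680, 2006, 1511, 1804 and 2098 FPKM in Sham. MI replicate 5 lay above the lowest Sham library, so the groups overlap. The log2 difference was -0.69 ± 0.22 SE between MI and Sham (adjusted p = 0.018), and -0.11 (adjusted p = 0.678) under quantile normalization. The call was also lost without the pooled Sham libraries (adjusted p = 0.0669) and with no filter on low values (0.088). The gene overlaps Itgad on the other strand. Its partner Cox6a1 (ENSMUSG00000041697, chromosome 5, 115345642 to 115348981, minus strand) stood at 161, 200, 117, 121 and 164 FPKM in GSK, at 148, 137, 190, 157 and 267 FPKM in MI, and at 148, 154, 138, 164 and 137 FPKM in Sham. It did not pass (0.24 ± 0.18, adjusted p = 0.304), except under quantile normalization, where it was called higher (0.35, adjusted p = 0.04).

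Cox8b (ENSMUSG00000025488, chromosome 7, 140898945 to 140900446, minus strand) is the muscle isoform of subunit 8. It stood at 844, 1309, 343, 406 and 801 FPKM in GSK, at 823, 390, 843, 309 and 997 FPKM in MI, and at 864, 1211, 1050, 1257 and 1313 FPKM in Sham. By itself it did not pass between MI and Sham (-0.89 ± 0.37 SE, adjusted p = 0.0662), with MI replicates 2 and 4 far below the other 3. The call appeared without MI replicate 5 (-1.07, adjusted p = 0.0359), without GSK replicate 2 (adjusted p = 0.0471), without both GSK libraries named with G (0.0438) and in a fit of MI and Sham alone (0.0414). Its partner Cox8a (ENSMUSG00000035885, chromosome 19, 7215158 to 7217616, minus strand) averaged 232 ± 47.0 FPKM in GSK, 259 ± 52.1 in MI and 246 ± 31.8 in Sham (SD) and did not pass (0.06 ± 0.16, adjusted p = 0.777).

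The ratio of the 2 isoforms within a library cancels the scaling of that library. Cox6a2 over Cox6a1 was 7.17 to 9.21 in GSK, 5.54 to 9.14 in MI and 10.9 to 15.3 in Sham. Cox7a1 over Cox7a2 was 1.25 to 3.05 in GSK, 0.814 to 2.607 in MI and 2.610 to 3.57 in Sham, so MI and Sham nearly touch. Cox8b over Cox8a was 1.80 to 4.31 in GSK, 1.47 to 3.16 in MI and 4.37 to 5.05 in Sham. In all 3 pairs every MI library lay below every Sham library. The mean log2 ratio differed by -0.93 ± 0.16 SE, -0.83 ± 0.33 and -0.95 ± 0.23 between MI and Sham. An exact two-sided permutation test gave p = 0.00794 for each, the smallest that 5 against 5 libraries allow, and 0.0143 adjusted over the 9 tests of 3 pairs in 3 comparisons. Without the 3 libraries that stand apart the differences were -0.87, -0.55 and -0.78 (exact permutation p = 0.0159 for each, the smallest possible, adjusted 0.0476).

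**Figure D3:**
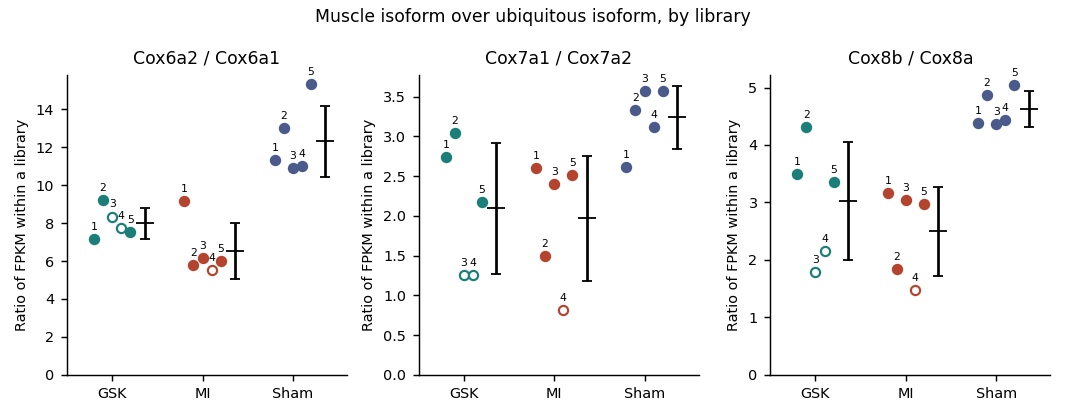
Ratio of the FPKM of the muscle isoform to that of the ubiquitous isoform within each library (y axes) for 3 complex IV subunits, in GSK, MI and Sham (x axes); digits are replicate numbers, open circles are the 3 libraries that stand apart, and bars give mean and SD. For each pair all MI points lie below all Sham points, and for the Cox7a and Cox8 pairs the open circles are among the lowest.

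The GSK ratios lay between those of MI and Sham on average without differing from MI by the test. The differences between GSK and MI were 0.31 ± 0.14, 0.12 ± 0.42 and 0.27 ± 0.33 on the log2 scale in the same order (exact permutation adjusted p = 0.0816, 0.81 and 0.491). Without the 3 libraries that stand apart they were 0.25, 0.25 and 0.46, and all 3 GSK libraries left lay above all 4 MI libraries for Cox8b over Cox8a (exact permutation p = 0.286, 0.400 and 0.0571, where 3 against 4 libraries allow no p under 0.0571). For Cox6a2 over Cox6a1 the test passed once MI replicate 1 was left out (0.44, exact permutation adjusted p = 0.0238), the only MI library above 6.18. Between GSK and Sham they were -0.62, -0.72 and -0.68 (exact permutation adjusted p = 0.0143, 0.0476 and 0.0143). The Cox7a pair lost its call without GSK replicate 3, 4 or 5 or Sham replicate 2, 3, 4 or 5 (exact permutation adjusted p 0.0714 to 0.0952). Without the 3 libraries that stand apart the GSK and Sham difference was -0.62, -0.29 and -0.32, with exact permutation p = 0.0357, 0.143 and 0.0357 (adjusted 0.0643, 0.184 and 0.0643). For the Cox6a and Cox8 pairs every GSK library left lay below every Sham library and p is the smallest that 3 against 5 libraries allow. The differences of the Cox7a and Cox8 pairs thus moved by more than 1.5 times with these libraries, and that of the Cox6a pair did not.

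The promoter windows of the Cox7a and Cox8 pairs are printed to show how the isoforms differ where transcription starts (RefSeq, build GRCm38.p6, 250 bases before to 50 after the start). Capitals mark matches, on either strand, to any of 8 short motifs: CCGGAAG (GABPA and other ETS factors), the NRF1 motif (GCGC, then 1 base of any kind, then TGCGC), the ERR motif AAGGTCA, ATGGCGGC (YY1), GGGCGG (GC box), the MEF2 motif (CTA, then 4 bases of any kind, then TAG), the E-box CAGCTG, bound by myogenic factors, and TATAAA (the core promoter box bound by TBP). No matches overlap in these windows.
Cox7a1, chr7:30183921-30184220, plus strand: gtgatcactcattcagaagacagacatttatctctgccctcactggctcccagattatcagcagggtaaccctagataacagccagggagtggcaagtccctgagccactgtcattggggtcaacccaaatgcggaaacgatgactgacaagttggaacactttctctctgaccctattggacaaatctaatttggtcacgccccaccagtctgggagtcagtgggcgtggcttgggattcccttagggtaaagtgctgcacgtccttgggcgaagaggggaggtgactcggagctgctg
Cox7a2, chr9:79759804-79760103, minus strand: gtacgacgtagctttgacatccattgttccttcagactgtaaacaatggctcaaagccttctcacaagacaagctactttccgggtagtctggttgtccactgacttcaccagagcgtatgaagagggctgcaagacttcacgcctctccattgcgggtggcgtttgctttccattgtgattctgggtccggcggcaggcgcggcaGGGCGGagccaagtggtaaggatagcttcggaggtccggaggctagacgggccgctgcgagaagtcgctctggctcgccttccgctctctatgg
Cox8b, chr7:140900397-140900696, minus strand: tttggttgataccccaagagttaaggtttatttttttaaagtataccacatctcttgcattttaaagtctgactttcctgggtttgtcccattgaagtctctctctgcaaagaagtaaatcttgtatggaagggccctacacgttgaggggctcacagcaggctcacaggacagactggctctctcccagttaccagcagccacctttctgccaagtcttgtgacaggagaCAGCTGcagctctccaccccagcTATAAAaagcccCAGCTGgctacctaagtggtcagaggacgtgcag
Cox8a, chr19:7217567-7217866, minus strand: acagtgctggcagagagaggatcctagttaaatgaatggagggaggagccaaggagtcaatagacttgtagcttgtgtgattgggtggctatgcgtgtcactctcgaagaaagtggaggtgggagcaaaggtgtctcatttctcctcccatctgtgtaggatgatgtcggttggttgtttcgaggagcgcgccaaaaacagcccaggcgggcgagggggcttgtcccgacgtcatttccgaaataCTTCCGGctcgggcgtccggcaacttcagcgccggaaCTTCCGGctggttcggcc

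The Cox8b window holds 2 matches to CAGCTG and 1 to TATAAA, and its partner Cox8a 2 matches to CCGGAAG. In Cox8b the TATAAA match and 1 of the CAGCTG matches lie after the annotated start, so this TATAAA is not upstream of that start. The other CAGCTG match lies before it. In Cox8a, 1 CCGGAAG match begins before the annotated start and the other lies after it. Cox7a2 holds 1 match to GGGCGG, and Cox7a1 none to any of the 8. Of the 43 symbols, 33 had a window in the table, with 36 windows in all; Cox6a2 is among those with none. CCGGAAG occurred in 27.8% of the member windows, against 8.86% of all 32851 windows, and the NRF1 motif in 22.2% against 4.60%. AAGGTCA occurred in 11.1% of the member windows and 4.72% of all, GGGCGG in 33.3% and 35.7%, CAGCTG in 5.56% and 16.3%, TATAAA in 8.33% and 13.6%, and the MEF2 motif in 2.78% and 3.69%. ATGGCGGC occurred in 0 of the 36 and in 2.24% of all. A match describes these letters only, and windows of genes with several starts overlap.

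Most members moved together from library to library. Relative to the Sham mean, the median member stood at log2 values of -0.48, 0.00, -0.54, -0.56 and -0.49 in GSK replicates 1 to 5, and of -0.33, -1.001, -0.50, -0.58 and -0.06 in MI. GSK replicate 2 was the highest GSK library for all 41 members. MI replicate 5 was the highest MI library for 36 members and MI replicate 2 the lowest for 31. Leaving out MI replicate 5 raised the number of members called lower in MI to 33 (23.1% of all genes), while leaving out MI replicate 2 or Sham replicate 5 lowered it to 12 (18.8% and 18% of all genes) and leaving out Sham replicate 4 to 13 (18.9%). Across the 820 pairs of members, the median Pearson r of log2 levels was 0.79 over the 15 libraries. Over the 12 that do not stand apart it was 0.91. The first decile was 0.36 and 0.44, and the lowest r -0.03 and -0.16, in the same order. These points share library, group and scale, and r over pairs of other genes was not computed.

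**Figure D4:**
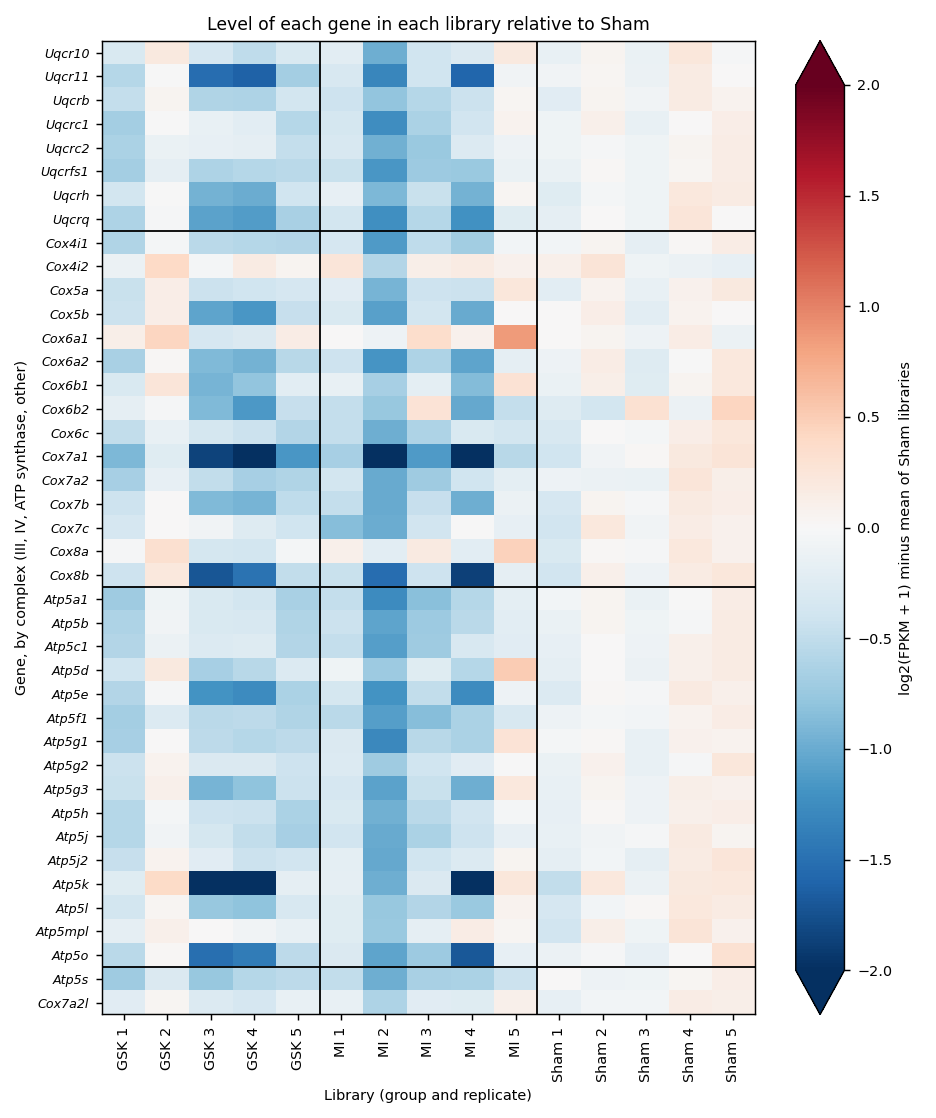
Colour gives log2(FPKM + 1) of each tested gene (rows, by complex) in each library (columns, GSK, MI and Sham replicates) minus the mean of the 5 Sham libraries, from -2 in blue to 2 in red. GSK replicate 2 and MI replicate 5 are near white, MI replicate 2 is blue for most genes at a median of -1.001, and Cox4i2, Cox6a1 and Cox8a are pale in most columns.

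Markers of other cell types moved between the same groups. The 12 cardiomyocyte markers summed to 16990 to 24713 FPKM in GSK, 13885 to 27987 in MI and 20432 to 26469 in Sham, with 2 called higher in MI and 6 called lower. MI replicate 2 had the lowest and MI replicate 5 the highest of these sums, as for most members. The members' sum divided by the cardiomyocyte marker sum was 0.570 to 0.753 in GSK, 0.524 to 0.698 in MI and 0.658 to 0.863 in Sham, so the groups overlap. The 7 fibroblast markers summed to 391 to 1546 FPKM in GSK, 653 to 1645 in MI and 201 to 280 in Sham, and 5 of 7 were called higher in MI. The 7 macrophage markers summed to 391 to 908 FPKM in GSK, 566 to 974 in MI and 266 to 334 in Sham, and all 7 were called higher in MI. Of all genes, 21.9% were called higher in MI and 21.9% lower. GSK replicate 2, whose members stood at the Sham level, had the lowest fibroblast sum of the infarcted libraries. The part of cell make-up in these results was not tested.

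Between GSK and MI no member passed. Of 41 tested, 0 were called, as were 0% of all genes, and 0 members had an unadjusted p under 0.05, against 21% of all genes. The median log2 difference was 0.06 over the members and 0.00 over all genes, with 30 members above 0, against 50.4% of all genes. The members of lowest p were Cox7c, Atp5a1, Atp5b and Atp5c1, at 0.27 ± 0.19, 0.25 ± 0.18, 0.21 ± 0.16 and 0.21 ± 0.16 SE (adjusted p = 0.4, 0.444, 0.457 and 0.467). Without the 3 libraries that stand apart the median was 0.15 and 38 members were above 0, against 53.7% of all genes, again with 0 called. Limma's voom on the recovered fragments called 0 members and 2 of all genes. The SE of most members here is near 0.2, so a change of that size in the treated hearts was not detectable with 5 libraries a group.

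Between GSK and Sham, 6 members were called lower and 0 higher, where 7.58% of all genes were called lower and 10.8% higher. They were Uqcrfs1, Uqcrq, Cox7a1, Cox7a2, Atp5f1 and Atp5s, at log2 differences of -0.52, -0.69, -1.23, -0.51, -0.53 and -0.57 (adjusted p = 0.0416, 0.0459, 0.0352, 0.0325, 0.0167 and 0.00339). At an unadjusted p under 0.05, 24 members were lower, against 16.6% of all genes. The log2 difference was below 0 for 39 members, against 52.7% of all genes, and the GSK libraries lay wholly below the Sham libraries for 5, against 7.79%. Atp5f1 and Atp5s kept their calls under all 26 alternatives, with Atp5f1 at -0.30 under quantile normalization. There Uqcrfs1, Uqcrq, Cox7a1 and Cox7a2 were at -0.17, -0.37, -0.86 and -0.20 and did not pass. Cox7a1 lost its call without GSK replicate 1, 3, 4 or 5 or Sham replicate 2, 3, 4 or 5 (adjusted p 0.0522 to 0.0804), and Cox7a2 without GSK replicate 1, 4 or 5 or Sham replicate 4 or 5 (0.0655 to 0.0841). Uqcrfs1 and Uqcrq lost theirs without GSK replicate 1, 3, 4 or 5, MI replicate 3 or any Sham replicate (0.0517 to 0.105). In all these 4 lost theirs in 10 to 16 of 26 alternatives, also without the 3 libraries that stand apart (adjusted p = 0.120, 0.177, 0.113 and 0.0903 for Uqcrfs1, Uqcrq, Cox7a1 and Cox7a2). Without those 3 libraries 2 members were called lower, against 8.54% of all genes. Without GSK replicate 2 the count was 19, 46.3% of the members against 8.99% of all genes. Without GSK replicate 1, 4 or 5 or Sham replicate 4 or 5 it was 2, or 4.88%, which is near the 3.27% to 5.36% of all genes in those fits. It was 3 without GSK replicate 3 or Sham replicate 2 or 3 (7.32%, against 4.85% to 6.39% of all genes), and 12 and 11 without MI replicates 2 and 5 (29.3% and 26.8%, against 10.5% and 8.98%).

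The size of the change between MI and Sham did not follow gene length. The 12 members under 1000 bases in the deposited table had a median log2 difference of -0.49, the 16 from 1000 to below 2000 bases -0.52, the 8 from 2000 to below 4000 bases -0.52 and the 5 of 4000 bases or more -0.51. Pearson r with log2 gene length was -0.01 and Spearman's rho -0.04 over the 41 genes, which share libraries and a scale, and r was -0.23 without the 3 libraries that stand apart. Between GSK and MI the r was 0.40, and -0.19 without the 3 libraries that stand apart. Between GSK and Sham it was 0.17, and -0.38 without them, with medians of -0.18 for the 12 shortest and -0.42 for the 13 of 2000 bases or more. Over all 12585 genes r between GSK and MI was 0.13 and rho 0.21, and 0.07 and 0.14 without the 3 libraries. With the GC percent of coding transcripts r between GSK and MI was -0.42 over the members and -0.28 over 11233 genes. A trend with length is thus not particular to the members. Among the members that between GSK and MI rests on the 3 libraries, and without them the shortest members were nearer to the Sham level.

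In those 3 libraries the members deviated in one shared pattern. The difference of MI replicate 4 from the other MI libraries and that of GSK replicates 3 and 4 from the other GSK libraries had r = 0.98 across the 41 members. Members with a median coding transcript under 500 bases were lower by a median log2 of -0.70 in MI replicate 4 and -0.80 in GSK replicates 3 and 4, while members from 500 to below 1000 bases were at -0.05 and -0.18. Atp5k, the membrane subunit e with the shortest transcript, was picked after its values were seen. It stood at 200, 309, 22.9, 30.0 and 210 FPKM in GSK, at 211, 120, 194, 19.6 and 279 FPKM in MI, and at 168, 277, 218, 271 and 276 FPKM in Sham. The 3 low values are those of the libraries that stand apart, log2 deviations of -3.12 in GSK and -3.23 in MI, and without them Atp5k differed by -0.30 between MI and Sham and 0.29 between GSK and MI. Cox7a1 and Cox8b deviated by -1.26 and -1.22 in MI replicate 4 and by -1.17 and -1.36 in GSK replicates 3 and 4, against 0.17 and -0.35 in MI and -0.10 and -0.45 in GSK for their partners Cox7a2 and Cox8a. The Cox7a1 and Cox8b transcripts are also the shorter of each pair, at 439 and 360 bases against 659 and 550, while Cox6a2 is longer than Cox6a1 at 680 against 571. Over the 11233 tested genes with coding transcripts, r with log2 transcript length was 0.16 in MI replicate 4 and 0.24 in GSK replicates 3 and 4, and r with the GC percent of the transcripts was -0.53 and -0.47. Over the 41 members, which share libraries and a scale, r was 0.41 and 0.52 with length and -0.27 and -0.25 with GC percent in the same order. What sets these libraries apart was not tested.

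**Figure D5:**
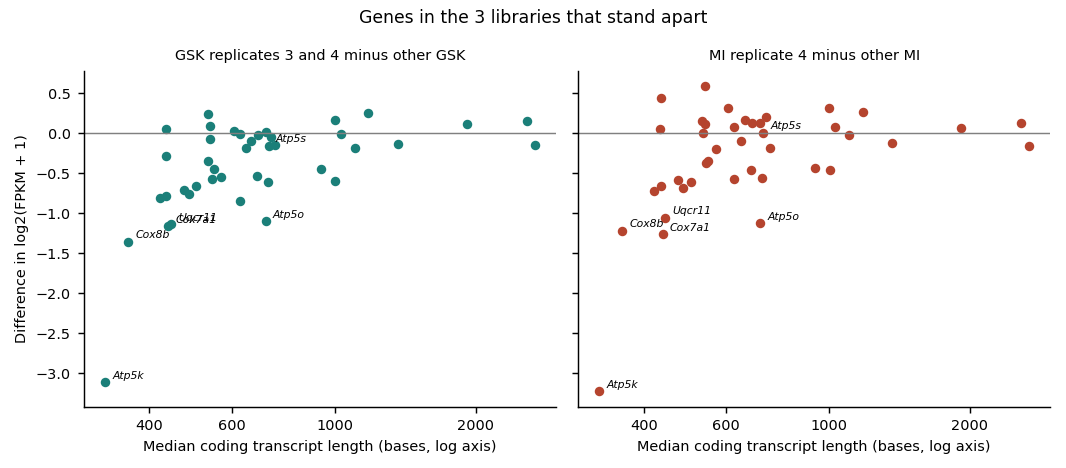
Difference in mean log2(FPKM + 1) (y axis) of GSK replicates 3 and 4 from the other GSK libraries at left, and of MI replicate 4 from the other MI libraries at right, against the median length of each gene's coding transcripts in bases (x axes, log scale), for the 41 tested genes. The genes below -1 in both panels are Atp5k, Cox8b, Cox7a1, Uqcr11 and Atp5o, and Atp5k lies lowest, at -3.12 and -3.23.

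Genes that build or control these complexes were set beside them. Between MI and Sham, 21.9% of all genes were called lower and 21.9% higher. Counts of these lists under quantile normalization, which ended 14 of the 20 member calls, are not given here. The 6 mitochondrially encoded subunits of complexes III to V had a median log2 difference of -1.13 between MI and Sham, with 5 called lower and 0 higher. Their sum divided by the members' sum was 3.77 to 9.88 in GSK, 2.96 to 8.68 in MI and 4.60 to 5.70 in Sham, the values over 8 being those of the 3 libraries that stand apart. Among assembly genes, 3 of 6 for complex III, 9 of 23 for complex IV and 4 of 5 in the ATP synthase list were called lower in MI and 0 higher. Atpif1, the inhibitor of ATP synthase when it runs in reverse, was at 46.5 ± 12.2 FPKM in GSK, 54.6 ± 8.49 in MI and 41.5 ± 3.98 in Sham (SD) and did not pass (0.38 ± 0.17, adjusted p = 0.0755); without the 3 libraries that stand apart 1 gene of that list was called higher. Fmc1 and Tmem70, which help ATP synthase to assemble, fell by 0.80 ± 0.21 SE and 0.64 ± 0.18 on the log2 scale. Complex II, which has no mitochondrially encoded subunit, had 3 of 4 genes called lower.

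Of 11 genes for transcriptional regulators of the chain, 8 were called lower in MI than in Sham and 0 higher, with a median of -0.59. Of all genes, 21.9% were called lower and 21.9% higher. Gabpa, which binds the ETS motif named above, was at 10.5 ± 1.14 FPKM in GSK, 7.68 ± 0.986 in MI and 12.6 ± 0.667 in Sham (SD), with a log2 difference of -0.65 ± 0.09 SE between MI and Sham (adjusted p = 8.16e-05); it overlaps the member Atp5j on the other strand. Esrra, the receptor ERR alpha, fell by 0.81 ± 0.23 SE on the log2 scale (adjusted p = 0.0112). Nrf1 did not pass, at 1.61 ± 0.111 FPKM in GSK, 1.57 ± 0.0574 in MI and 1.47 ± 0.106 in Sham. Between GSK and MI, 0 of the 11 were called, at a median of 0.31, and Gabpa was at 0.41 ± 0.09 SE (adjusted p = 0.0868).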

How the data were processed

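Per the labels' protocols, poly-A libraries used 1000 ng of RNA each, at a RIN above 8, and were read as paired ends of 150 nt. The authors deposited a table of FPKM with gene length and coordinates on mm10. The submitters' processing notes list DESeq2, R 3.5.1, HISAT2 and featureCounts without a role. The strand setting, the annotation release and the treatment of multi-mapping fragments: not given in the sources used here. FPKM times gene length was a whole multiple of a step per library for 100% of values within 0.01, which gave the fragment totals of 21534000 to 26844000 per library. The deposited scale does not follow these totals. The total it implies was above the fragment total in MI replicates 1, 2, 3 and 5 and GSK replicates 1, 2 and 5. It was below in MI replicate 4, GSK replicates 3 and 4 and all Sham libraries. Per kilobase, 1 fragment counted as 0.0357 to 0.0388 FPKM in those MI libraries, 0.0478 in MI replicate 4 and 0.0402 to 0.0472 in Sham. No alternative scaled by the fragment totals, which would raise MI relative to Sham for all genes.

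Values were transformed as log2(FPKM + 1), which understates the change of low genes, and kept at 1 FPKM or more in at least 5 of 15 libraries, which left 12585 genes. All 15 libraries entered one fit of group means by limma 3.58.1 under R 4.3.3 (moderated contrasts with a mean trend, two-sided). P-values were adjusted by Benjamini-Hochberg over all genes and called under 0.05. The libraries are separate mice or pools per the labels. The fit was tested on simulated data of 12585 genes for MI against Sham: 95.5% of genes changed by a log2 of 1 were called. Among the unchanged genes 9 were called. Values were drawn independently for each gene, and a small part of the genes, none of them low, was changed. No change below a log2 of 1 was simulated, so the power for changes near the member median is not known from it. Isoform ratios used log2 of (FPKM + 1) within a library and an exact permutation test with scipy 1.17.1, adjusted over 9 tests. Alternatives covered the pseudocount (0.1), the filter, quantile normalization, mitochondrial genes, the groups fitted, the mean trend, a block, left-out libraries and voom on recovered fragments. Voom took the totals implied by the deposited scale as library sizes, so it cannot check that scale. Leaving out the 3 libraries that stand apart in the length trend, and the pseudogene alignment (blastn 2.17.0, 97% identity over 150 bases, GENCODE vM21 transcripts), were added after seeing the data.

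The members and lists were chosen with earlier results of these data known. Genes were named as the isoforms of the pairs compared, those of lowest p, those with the largest and smallest differences, those that match the pattern without being subunits and those that failed the filter, with the exceptions stated. RefSeq promoter windows were matched by symbol or synonym for 33 of 43 symbols. Protein sequences were not used here.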

Additional observations from a re-analysis of the deposited data

Results flagged for a closer look

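In each group of 5 libraries, the highest and lowest value of the named genes, the sums and the isoform ratios were compared with the other 4; 6 of 93 groups had a library set apart by more than the 95% critical value of Dixon's ratio (0.71), and chance alone gives about 1 in 20. Of these 6, 4 are GSK replicate 2, which stood above the other GSK libraries: Uqcr10 was at 575 FPKM against 350 to 407, Uqcrfs1 at 639 against 453 to 500, the complex III sum at 3484 against 2195 to 2497, and the ATP synthase sum at 6598 against 4502 to 4794. MI replicate 2 was low for Cox4i2, at 7.34 FPKM against 12.3 to 13.9. MI replicate 1 had a Cox6a2 to Cox6a1 ratio of 9.14 against 5.54 to 6.18.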

How the results depend on the processing

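Members called lower in MI numbered 20 and moved to 9 with no filter on low values (8.82% of all genes), where low genes enter the adjustment, to 12 without the pooled Sham libraries (16.6% of all genes) and to 8 under quantile normalization (7 lower, and Cox6a1 higher), which moved the member median to -0.26 and left 17.1% of members against 22.9% of all genes called lower; they ran from 12 to 33 when single libraries were left out. Between GSK and Sham, 6 became 2 without the 3 libraries that stand apart, with no filter, without the pooled Sham libraries and under quantile normalization (1.87% to 8.54% of all genes), 12 without the GSK libraries whose names carry G (4.77%), 19 in a fit of those 2 groups alone (13%), and 2 to 19 with single libraries left out. Between GSK and MI the count stayed 0. With totals equalised after dropping mitochondrially encoded genes, calls between MI and Sham split 63.4% higher in place of 49.99%, between GSK and Sham 82.0% in place of 58.7%, the median of all genes moved to 0.06 and 0.09, and the member medians were -0.43 and -0.29. The cause was not tested unless given.

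The replicate numbers share a number only: same-numbered libraries correlated from -0.41 to 0.49. With the replicate block, member calls were 16 between MI and Sham, 0 between GSK and MI and 2 between GSK and Sham, and the ratio differences, unchanged at -0.93, -0.83, -0.95, -0.62, -0.72 and -0.68, had adjusted p of 0.113 to 0.188, since sign flips of 5 pairs allow no small p. Fewer libraries likewise bound the exact p without the pooled Sham libraries, where the differences were -0.93, -0.92 and -0.95 between MI and Sham and -0.62, -0.80 and -0.68 between GSK and Sham (adjusted p = 0.0536), and without the GSK libraries named with G (-0.64, -1.09 and -0.97 between GSK and Sham, 0.0536). Without the 3 that stand apart these were -0.62, -0.29 and -0.32. With single libraries left out, the Cox7a ratio between GSK and Sham ran from -0.88 to -0.56 (adjusted p up to 0.0952), that between GSK and MI from -0.17 to 0.28, and the Cox6a ratio between GSK and MI from 0.26 to 0.44. Without the libraries named with G, the GSK and MI differences turned to -0.26 for the Cox7a and -0.020 for the Cox8 ratio, and to -0.10 for Cox6a2, -0.31 for Cox7a1, -0.047 for Cox7a2 and -0.34 for Cox8b, none called.

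Other uncalled values that changed sign were, between MI and Sham, Atp5d at 0.11 under quantile normalization, Cox4i2 at -0.035 without the 3 libraries and -0.014 with voom, and Cox8a at -0.032 without the pooled Sham libraries. Between GSK and Sham they were Atp5a1 at 0.013, Atp5b at 0.023, Cox7c at 0.066 and Cox8a at 0.17 under quantile normalization, Cox8a at 0.087 without the 3 libraries and 0.041 without mitochondrial genes, and Cox6a1 at -0.16 without the libraries named with G. With single libraries left out, Cox4i2 ran from -0.055 to 0.15 and Cox8a from -0.036 to 0.13 between MI and Sham, Cox6a1 from -0.087 to 0.10 between GSK and Sham, and between GSK and MI Cox6a2 from -0.067 to 0.22, Cox7a1 from -0.12 to 0.34, Cox7a2 from -0.094 to 0.11 and Cox8b from -0.13 to 0.35.

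Each library held 21534000 fragments or more, and at this depth 3 members stayed under the filter and were not tested. One of these, the second Atp5o row, overlaps the first, and the part of depth in its values of 0 was not tested.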
